A study of Homo sapiens with 24 samples.

Results

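NRF2 is the transcription factor encoded by NFE2L2. In unstressed cells the adaptor KEAP1, together with the ubiquitin ligase scaffold CUL3, marks NRF2 for degradation. Oxidants and electrophiles modify KEAP1, and NRF2 then accumulates and binds antioxidant response elements with a small MAF protein as its partner. Its activity is therefore set largely at the protein level, which RNA libraries do not measure. The genes described here are NFE2L2, KEAP1 and 6 enzymes whose genes are classical NRF2 targets, NQO1, ME1, SRXN1, TXNRD1, PRDX1 and HMOX1. They were chosen by symbol, each matched to 1 Ensembl identifier, so that the 8 members are 8 of 63299 genes listed and 8 of 20240 genes that passed the filter on low counts.

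The libraries came from the isogenic ovarian cancer cell lines A2780 (platinum-sensitive) and A2780cis (platinum-resistant), each of them 1 established line. Both lines grew in RPMI1640 medium with fetal calf serum, and the A2780cis cultures received 1 μM cisplatin for a passage at intervals to keep their resistance. Cells were given standard medium (untreated) or 1 μM 5-FdU-ECyd, a duplex prodrug of the antimetabolites 5-FdU and ECyd, and were harvested after 6 h or 12 h, which makes 8 groups of 3 libraries. The study describes the 3 libraries of a group as biological triplicates, while the labels do not say how they were separated. The p-values rest on the spread between libraries within groups, estimated in 1 fit over the 8 groups of both lines. They do not cover variation beyond these samples of 1 line each.

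The libraries held between 11077368 and 21901406 counts. Levels are given as CPM (counts scaled to a common library total, with TMM factors), as mean ± SD of 3 libraries, and differences as fitted log2 fold changes (log2 FC) with their standard error (SE). A gene was called at an adjusted p of at most 0.05 in the quasi-likelihood test of edgeR (Benjamini-Hochberg method, over all 20240 genes). Of 8 epithelial ovarian markers, KRT7, CDH1, PAX8, WT1 and MUC16 had at most 2 counts in any library, whereas KRT18 reached 602. The summed level of these 8 markers was 2.09 to 6.5 CPM in the A2780 libraries and 25.0 to 35.7 CPM in the A2780cis libraries. Of 6 markers of other cell types, PTPRC, CD3E, PECAM1 and VWF had at most 1 count, and the stromal genes DCN and LUM reached 171 and 53 counts. The summed level of these 6 was 6.53 to 15.6 CPM in A2780 and 1.02 to 2.29 CPM in A2780cis, and the part of these marker differences in the results was not tested. Removal of 1 library of untreated A2780 cells, 6 h replicate 1, changed several calls at 6 h, which are given beside each result.

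Antioxidant response elements share the core TGACNNNGC, in which N is any base, and matches at 3 members are shown because this element is what NRF2 targets are known by. In the 1000 bases before the annotated start of the canonical transcript (hg38, GENCODE 44), the exact letters TGACTCAGC were found on either strand at 263 of 20046 protein-coding genes (1.31%), at 2 of the 8 members and at 5 of 71 other pathway genes (7.04%). The members were ME1, with the match 137 bases before its start at chr6:83431170-83431198 (minus strand), and NQO1, with the match 455 bases before its start at chr16:69726997-69727025 (minus strand). The core with free inner bases was searched on both strands in the promoter windows of RefSeq (GRCh38.p14, 250 bases before to 50 after a start), where it contains the exact match of ME1. It was present in 4687 of 35116 windows (13.3%) and in 12 of 81 windows of other pathway genes (14.8%), a share near that of all windows. Of the member windows 4 of 9 held it, and these belong to 3 genes, KEAP1, ME1 and TXNRD1 with both of its starts. The TXNRD1 window printed lies at chr12:104215670-104215698 (plus strand), 99 bases before that start. The capitals mark the matched letters, each sequence reads 5′ to 3′ on the strand of its gene, and a match or its absence says nothing on binding.
ME1: tctcctgccaTGACTCAGCgcttctcgca
NQO1: gcagtcacagTGACTCAGCagaatctgag
TXNRD1: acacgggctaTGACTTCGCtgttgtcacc

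Between the untreated lines, the antioxidant targets did not differ in 1 direction. ME1 RNA was absent from untreated A2780cis at this depth, NQO1 was lower and SRXN1 higher at both times, and TXNRD1, NFE2L2 and KEAP1 passed the threshold at neither. In all, 4 of the 8 members were called at 6 h, with 1 higher and 3 lower in A2780cis, against 47.9% of all genes tested (25.0% higher and 22.9% lower). At 12 h again 4 were called, 1 higher and 3 lower, against 52.9% of all genes (25.4% higher and 27.5% lower). The share of members called was thus close to that of all genes. Fewer cells of a kind and less RNA per cell cannot be told apart in such bulk libraries.

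**Figure D1:**
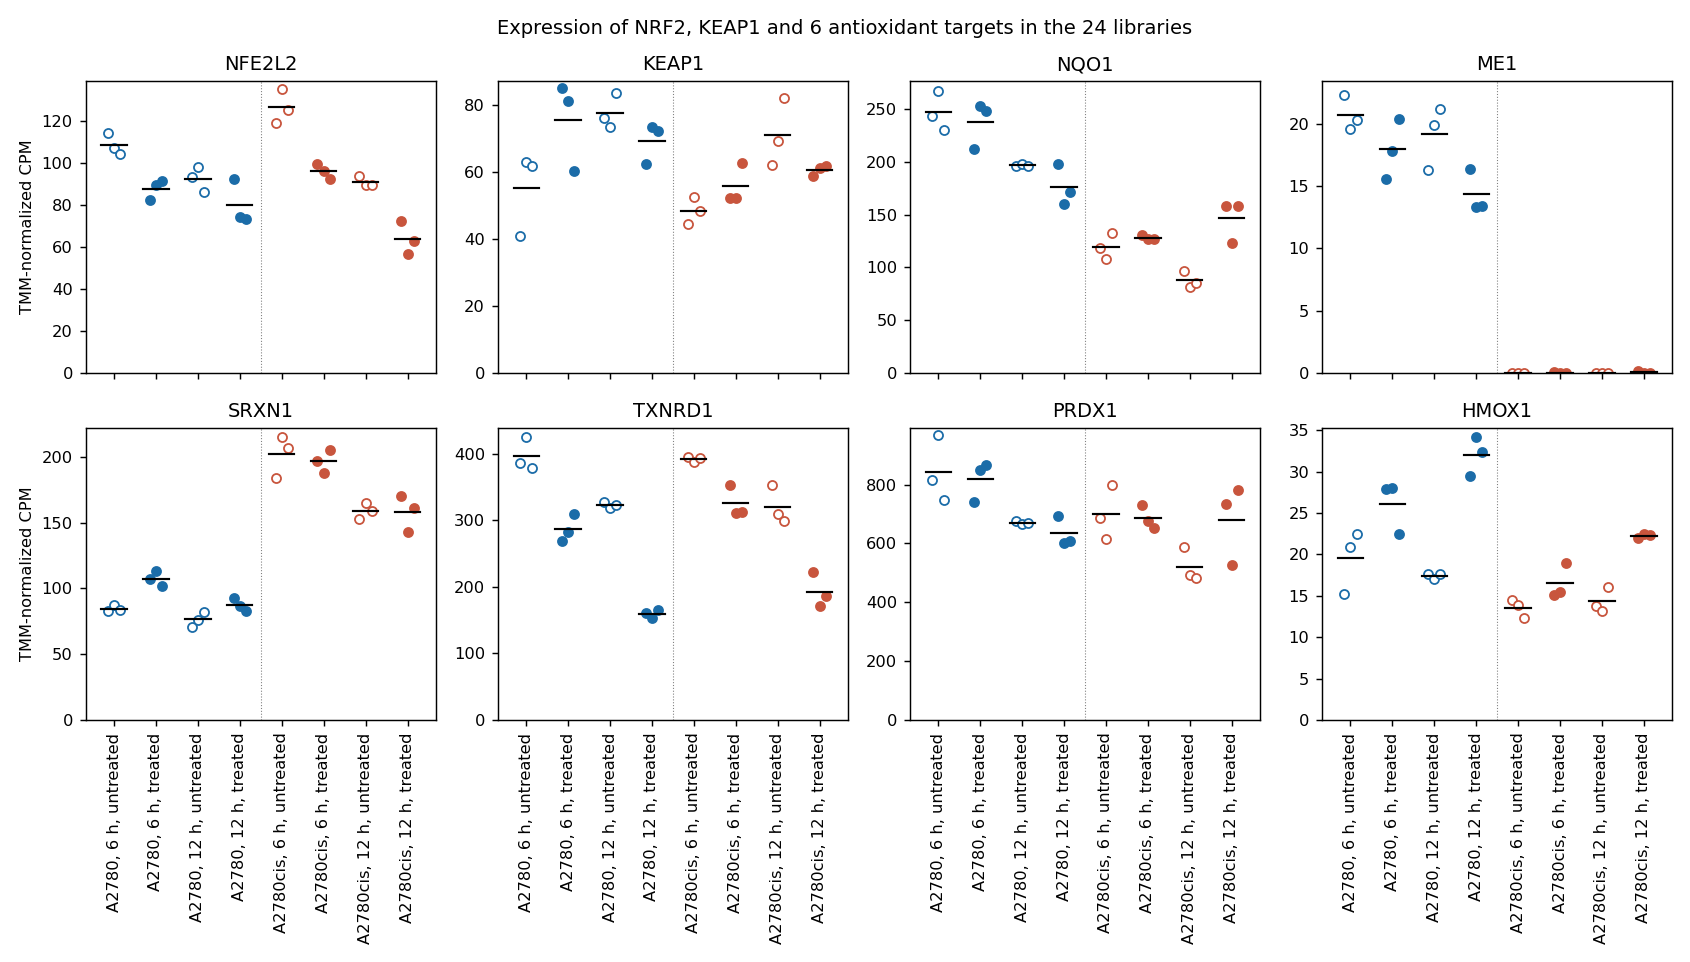
TMM-normalized CPM of the 8 members (1 panel each, axes from 0) in the 24 libraries, grouped by line, time and treatment. Each point is a library, open for untreated and filled for 5-FdU-ECyd treated, blue for A2780 and red for A2780cis, and bars are means of 3; ME1 lies at or near 0 in every A2780cis library, and SRXN1 is higher there than in every A2780 library.

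ME1 (ENSG00000065833.8, chr6:83210402-83431051) encodes cytosolic malic enzyme, which makes NADPH from malate. In untreated A2780 it measured 22.3, 19.6 and 20.3 CPM at 6 h and 16.3, 19.9 and 21.2 CPM at 12 h. All 6 untreated A2780cis libraries had 0 counts, which separated the lines completely. With 3 counts per library as the limit that a count of 0 allows, ME1 was at least 75.5-fold lower in A2780cis at 6 h and at least 121-fold lower at 12 h (adjusted p = 2.35e-14 and 2.09e-15, edgeR quasi-likelihood test). The treated A2780cis libraries did not depart from this: 1 of 3 at each time held ME1 counts, at 0.0797 CPM at 6 h and 0.191 CPM at 12 h. Such limits allow for counting error alone, as the reads carry no molecular identifiers.

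NQO1 (ENSG00000181019.12, chr16:69706996-69726668), a quinone reductase used widely as a readout of NRF2, measured 243, 267 and 230 CPM in untreated A2780 at 6 h. In untreated A2780cis the 6 h values were 118, 108 and 133 CPM. The lowest A2780 library was therefore well above the highest A2780cis library. The log2 FC was -1.05 (SE 0.11; adjusted p = 5.63e-09, edgeR quasi-likelihood test). At 12 h the levels were 197 ± 1.25 CPM in A2780 and 87.8 ± 8.19 CPM in A2780cis, again without overlap (log2 FC -1.16, SE 0.11; adjusted p = 6.3e-10, edgeR). A long non-coding gene on the opposite strand, ENSG00000261602, shares 19.4% of the NQO1 exons, and its counts were 0.0462 to 0.0874 of those of NQO1.

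SRXN1 (ENSG00000271303.1, chr20:646615-653200) encodes sulfiredoxin, which restores overoxidized peroxiredoxins, and it was the only member called higher in A2780cis in both untreated comparisons. At 6 h its levels were 184, 215 and 207 CPM in untreated A2780cis against 82.5, 87.6 and 83.2 CPM in A2780. At 12 h they were 153, 165 and 159 CPM against 70.6, 76.2 and 82.4 CPM. The lines did not overlap, with a log2 FC of 1.26 at 6 h (SE 0.09; adjusted p = 1.8e-12, edgeR) and 1.05 at 12 h (SE 0.08; adjusted p = 4.44e-11, edgeR). Another annotated gene on the same strand, ENSG00000270299, covers 90.7% of the SRXN1 exons and had 0.9952 to 1.003 times its counts, so that the reads of the pair cannot be told apart.

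HMOX1 (ENSG00000100292.16, chr22:35380361-35394214), the inducible heme oxygenase, was among the lower members. In untreated A2780 at 6 h it measured 15.2, 20.9 and 22.5 CPM, and in A2780cis 14.5, 13.9 and 12.3 CPM. The ranges nearly met because of the low value of replicate 1 of A2780, and the log2 FC was -0.52 (SE 0.14; adjusted p = 0.00264, edgeR). At 12 h the levels were 17.4 ± 0.363 CPM and 14.4 ± 1.56 CPM, a difference that missed the threshold (log2 FC -0.28, SE 0.13; adjusted p = 0.0745, edgeR).

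PRDX1 (ENSG00000117450.13, chr1:45510914-45542732), an abundant cytosolic peroxiredoxin that removes hydrogen peroxide, was the member with the highest level per length. Its group means ran from 552 to 893 CPM per kilobase of canonical transcript, against 8.75 to 20.6 for HMOX1 and 0 to 6.21 for ME1. The untreated 6 h levels were 844 ± 113 CPM in A2780 and 699 ± 91.7 CPM in A2780cis, with overlapping libraries (log2 FC -0.27, SE 0.13; adjusted p = 0.082, edgeR). This value lay at the threshold, since 5 alternative settings called PRDX1 lower at 6 h, with log2 FC from -0.37 to -0.29 and adjusted p from 0.00315 to 0.0412 (edgeR or DESeq2). It was also called without the untreated replicate 3 of A2780 or of A2780cis (adjusted p = 0.0438 and 0.0312, edgeR). At 12 h they were 677, 666 and 670 CPM against 588, 494 and 481 CPM, without overlap, and PRDX1 was called lower (log2 FC -0.36, SE 0.13; adjusted p = 0.0187, edgeR). The call rested on few libraries. It was lost without the untreated 12 h A2780 replicate 1 (adjusted p = 0.0511, edgeR) and without A2780cis replicates 2 or 3 (adjusted p = 0.0731 and 0.0852, edgeR). MMACHC, on the opposite strand, shares 29.8% of the PRDX1 exons, and its counts were 0.281 to 0.341 of those of PRDX1.

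TXNRD1 (ENSG00000198431.15, chr12:104215779-104350307) encodes the cytosolic thioredoxin reductase that keeps thioredoxin reduced. Its untreated levels were 397 ± 25.1 CPM in A2780 and 393 ± 4.2 CPM in A2780cis at 6 h, and 323 ± 4.61 and 321 ± 29.4 CPM at 12 h. The libraries of the lines overlapped at both times. The 95% interval of the log2 FC was -0.21 to 0.18 at 6 h and -0.20 to 0.18 at 12 h.

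For the factor itself, NFE2L2 (ENSG00000116044.15, chr2:177218667-177392756), the untreated 6 h values were 119, 135 and 125 CPM in A2780cis and 114, 107 and 104 CPM in A2780. These did not overlap, yet the test missed the threshold (log2 FC 0.22, SE 0.09; adjusted p = 0.0565, edgeR). At 12 h the levels were 90.9 ± 2.42 and 92.4 ± 5.88 CPM, with an interval of the log2 FC from -0.22 to 0.17. HNRNPA3 on the opposite strand shares 23.4% of the annotated NFE2L2 exons and had 5.22 to 7.79 times its counts. The counting settings that the study lists name no strand option, and whether strand was used is not stated. Reads from the opposite strand may therefore be part of the counts of such members.

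KEAP1 (ENSG00000079999.13, chr19:10486125-10503558), the repressor, measured 44.6, 52.6 and 48.3 CPM in untreated A2780cis at 6 h and 40.9, 62.9 and 61.8 CPM in A2780. The low A2780 value was that of replicate 1. The log2 FC was -0.18 (SE 0.14; adjusted p = 0.312, edgeR) and became -0.36 without that library (adjusted p = 0.0309, edgeR). At 12 h the levels were 71.1 ± 10.1 and 77.6 ± 5.27 CPM (log2 FC -0.13, SE 0.14; adjusted p = 0.458, edgeR).

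**Figure D2:**
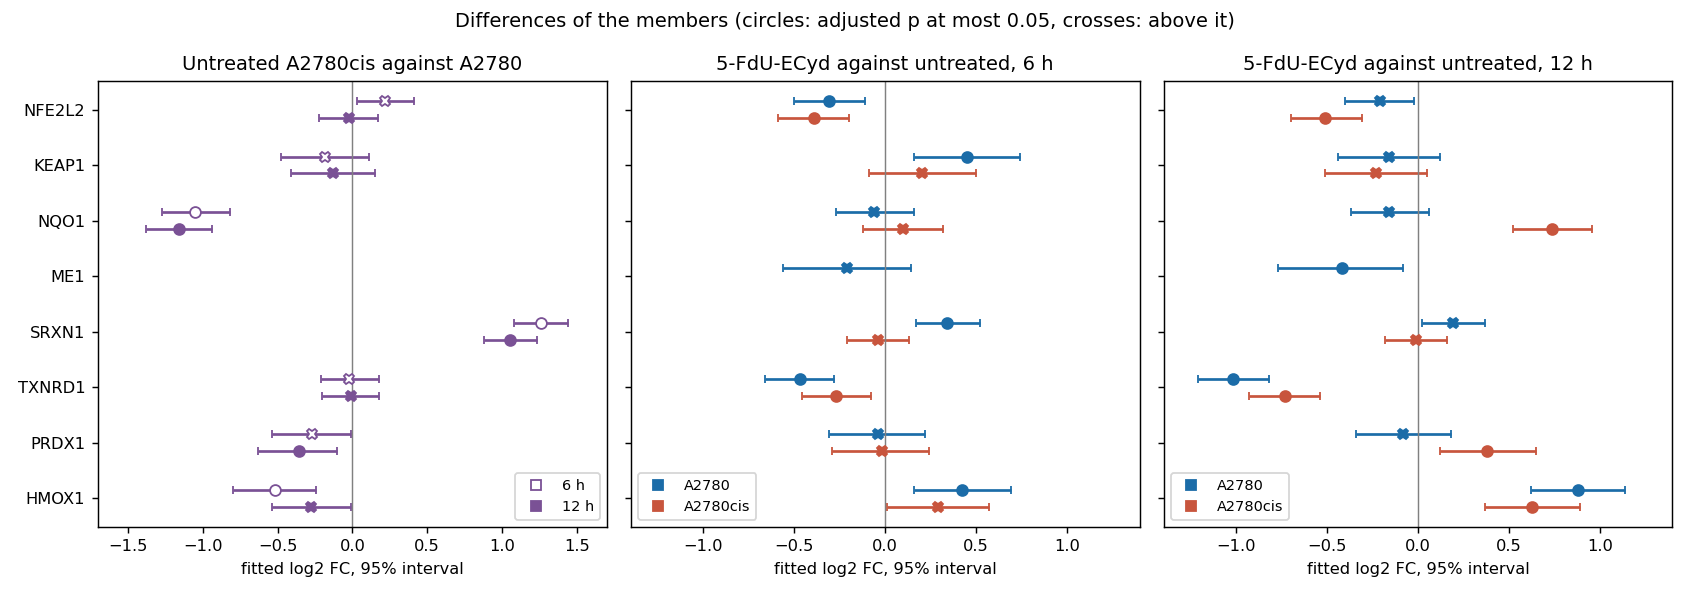
Fitted log2 FC (x axis) of each member with its 95% interval in 3 panels: untreated A2780cis against A2780 at 6 h (open) and 12 h (filled), and 5-FdU-ECyd treated against untreated cells at 6 h and at 12 h, blue for A2780 and red for A2780cis. Circles mark an adjusted p of at most 0.05 and crosses a larger one, and ME1 is drawn only where both groups had counts; the NQO1 intervals of the 12 h treatment do not meet, at -0.37 to 0.06 in A2780 and 0.52 to 0.96 in A2780cis.

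Exposure to 5-FdU-ECyd did not move the targets as a block either. TXNRD1 fell in both lines at both times and HMOX1 rose in both lines at 12 h. NFE2L2 fell at both times in A2780cis and at 6 h in A2780, while NQO1 rose in A2780cis at 12 h alone among the 4 comparisons. At 6 h in A2780, 5 of the 8 members were called, 3 higher and 2 lower, against 29.4% of all genes (16.0% higher and 13.4% lower). At 6 h in A2780cis 2 were called, both lower, against 30.7% of all genes (14.4% higher and 16.3% lower). At 12 h in A2780 the count was 3, with 1 higher and 2 lower, against 54.8% of all genes (28.6% higher and 26.1% lower). At 12 h in A2780cis it was 5, with 3 higher and 2 lower, against 59.9% of all genes (31.0% higher and 28.9% lower). Without the untreated 6 h A2780 replicate 1, or without the treated 6 h A2780 replicate 1, the first of these counts dropped to 2, and without the treated replicate 2 to 3. Scaling by library size alone raised the median log2 FC of all genes from 0.02 to 0.24 at 12 h in A2780, and the share of higher genes among all called from 52.3% to 70.7%. At 6 h in A2780cis it raised that share from 47.0% to 61.4%, and no called member changed its direction.

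TXNRD1 fell most at 12 h. In A2780 it measured 328, 319 and 324 CPM untreated and 161, 154 and 165 CPM treated (log2 FC -1.02, SE 0.09; adjusted p = 1.47e-09, edgeR). In A2780cis the values were 354, 310 and 299 CPM untreated and 222, 171 and 186 CPM treated (log2 FC -0.73, SE 0.09; adjusted p = 2.5e-07, edgeR). The groups did not overlap in either line. At 6 h the level was 397 ± 25.1 CPM untreated and 287 ± 20.4 CPM treated in A2780 (log2 FC -0.47, SE 0.09; adjusted p = 0.00048, edgeR).

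The 6 h change of TXNRD1 in A2780cis was smaller, with 393 ± 4.2 CPM untreated and 326 ± 24.2 CPM treated (log2 FC -0.27, SE 0.09; adjusted p = 0.0303, edgeR). That call was lost on removal of any library of the comparison other than the treated replicate 1, with adjusted p between 0.0565 and 0.121 (edgeR). Scaling by library size alone gave -0.17 (adjusted p = 0.0779, edgeR), and omission of the filter on low counts gave -0.24 (adjusted p = 0.133, edgeR).

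HMOX1 changed the other way. At 12 h it measured 17.6, 17.0 and 17.6 CPM untreated and 29.5, 34.2 and 32.4 CPM treated in A2780 (log2 FC 0.88, SE 0.13; adjusted p = 1.61e-06, edgeR). In A2780cis the values were 13.7, 13.2 and 16.1 CPM untreated and 22, 22.4 and 22.3 CPM treated (log2 FC 0.63, SE 0.13; adjusted p = 0.000144, edgeR). Every treated library was above every untreated one in both lines. At 6 h HMOX1 was called in A2780, from 19.5 ± 3.81 to 26.1 ± 3.19 CPM with overlapping libraries (log2 FC 0.42, SE 0.13; adjusted p = 0.0161, edgeR). The 6 h call was lost without the untreated replicate 1 (log2 FC 0.26, adjusted p = 0.16, edgeR) and without the treated replicates 1 or 2 (adjusted p = 0.0751 and 0.0714, edgeR). In A2780cis at 6 h the log2 FC was 0.29 (SE 0.14; adjusted p = 0.114, edgeR).

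NQO1 separated the lines in their response at 12 h. Its values in A2780cis were 97.0, 81.5 and 84.9 CPM untreated and 158, 123 and 158 CPM treated, without overlap (log2 FC 0.74, SE 0.11; adjusted p = 1.64e-06, edgeR). In A2780 they were 196, 198 and 196 CPM untreated and 198, 160 and 171 CPM treated, with overlap (log2 FC -0.16, SE 0.11; adjusted p = 0.213, edgeR). The treated A2780cis level of 146 ± 20.3 CPM remained below each A2780 library of that time. At 6 h the log2 FC was -0.06 in A2780 and 0.10 in A2780cis (SE 0.11 in both; adjusted p = 0.725 and 0.5, edgeR).

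**Figure D3:**
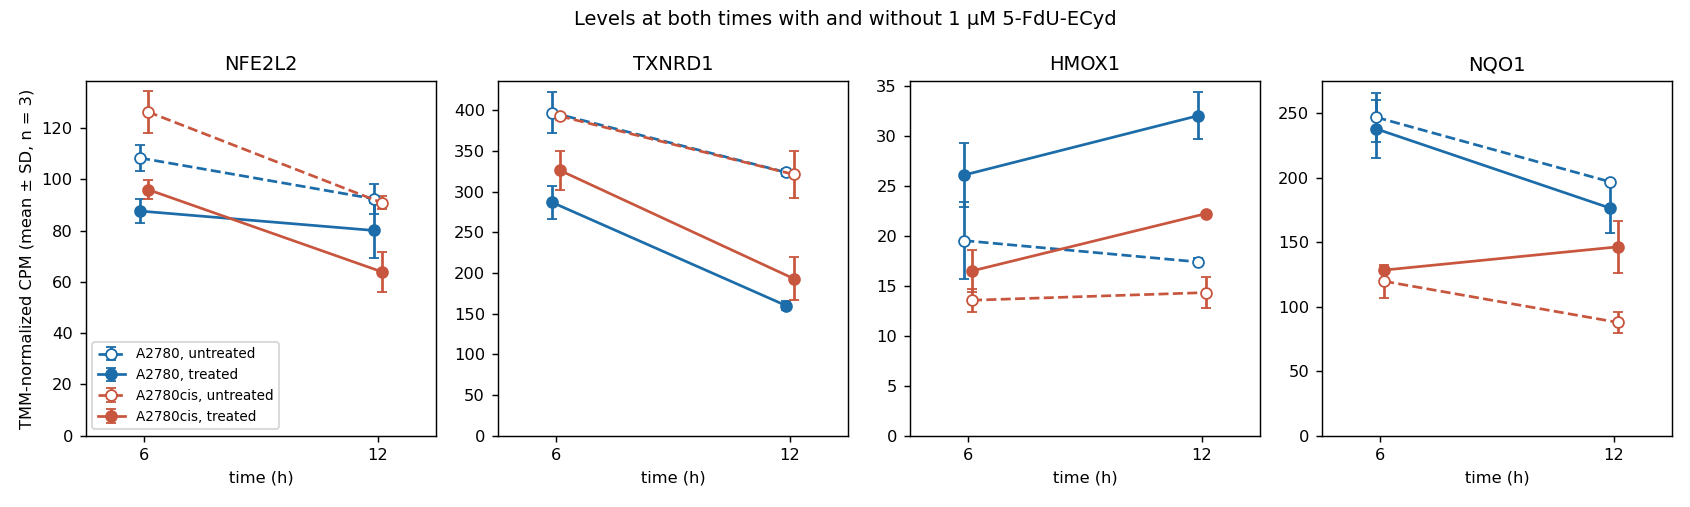
TMM-normalized CPM (mean ± SD, n = 3, axes from 0) of NFE2L2, TXNRD1, HMOX1 and NQO1 at 6 h and 12 h, blue for A2780 and red for A2780cis, with open symbols and dashed lines for untreated and filled symbols and solid lines for treated cells. TXNRD1 is lower with treatment in both lines, HMOX1 is higher in both lines at 12 h, and the treated NQO1 mean leaves the untreated one at 12 h in A2780cis, at 146 against 87.8 CPM.

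NFE2L2 RNA was called lower in 3 of the 4 treatment comparisons. In A2780cis it measured 119, 135 and 125 CPM untreated and 99.6, 96.1 and 92.4 CPM treated at 6 h (log2 FC -0.39, SE 0.09; adjusted p = 0.00236, edgeR). At 12 h the A2780cis values were 93.7, 89.7 and 89.3 CPM untreated and 72.3, 56.8 and 62.8 CPM treated (log2 FC -0.51, SE 0.09; adjusted p = 5.28e-05, edgeR). Treated and untreated libraries were apart at both times. In A2780 the 6 h level was 108 ± 5.13 CPM untreated and 87.6 ± 4.78 CPM treated (log2 FC -0.31, SE 0.09; adjusted p = 0.0172, edgeR). That call did not survive removal of the untreated or the treated replicate 1 (adjusted p = 0.0847 and 0.093, edgeR) or of the filter on low counts (adjusted p = 0.0542, edgeR). At 12 h in A2780 the levels were 92.4 ± 5.88 and 80.0 ± 10.8 CPM, and the log2 FC of -0.21 missed the threshold (SE 0.09; adjusted p = 0.0619, edgeR). Without the treated 12 h A2780 replicate 1, at 92.5 CPM against 74.4 and 73.3 CPM in the others, it was -0.34 (adjusted p = 0.0045, edgeR), and without the untreated replicate 3 it was -0.26 (adjusted p = 0.0406, edgeR).

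KEAP1 was called in 1 of the 4 treatment comparisons, A2780 at 6 h. The untreated values were 40.9, 62.9 and 61.8 CPM and the treated values 84.9, 81.1 and 60.2 CPM, which overlap (log2 FC 0.45, SE 0.14; adjusted p = 0.0177, edgeR). Without the untreated replicate 1 the log2 FC was 0.27 (adjusted p = 0.172, edgeR), and without the treated replicates 1 or 2 the adjusted p was 0.112 and 0.0758 (edgeR). The other 3 comparisons gave 0.20 in A2780cis at 6 h and -0.16 and -0.23 at 12 h in A2780 and A2780cis, with adjusted p between 0.156 and 0.329 (edgeR).

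SRXN1 was called in A2780 at 6 h, where it measured 82.5, 87.6 and 83.2 CPM untreated and 107, 113 and 102 CPM treated, without overlap (log2 FC 0.34, SE 0.09; adjusted p = 0.00392, edgeR). At 12 h in A2780 the log2 FC was 0.19 (SE 0.08; adjusted p = 0.0588, edgeR). It was called with library size alone (log2 FC 0.41, adjusted p = 6.26e-05, edgeR), with the compared samples alone (0.21, adjusted p = 0.0379, edgeR) and without the untreated replicate 3 (0.24, adjusted p = 0.0353, edgeR). In A2780cis it was -0.04 at 6 h and -0.01 at 12 h, with intervals of -0.21 to 0.13 and -0.18 to 0.16.

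Calls of ME1 and PRDX1 at 12 h depended on single libraries. ME1 in A2780 measured 16.3, 19.9 and 21.2 CPM untreated and 16.4, 13.3 and 13.4 CPM treated, with overlap (log2 FC -0.42, SE 0.17; adjusted p = 0.0369, edgeR). This call was lost without the untreated replicates 2 or 3 (adjusted p = 0.0935 and 0.143, edgeR), without the treated replicates 2 or 3 (adjusted p = 0.126 and 0.114, edgeR) and with library size alone (log2 FC -0.20, adjusted p = 0.337, edgeR). At 6 h in A2780 the log2 FC of ME1 was -0.21 (SE 0.17; adjusted p = 0.378, edgeR). PRDX1 in A2780cis measured 588, 494 and 481 CPM untreated and 735, 525 and 782 CPM treated, also with overlap (log2 FC 0.38, SE 0.13; adjusted p = 0.0115, edgeR). It was lost without the untreated replicates 2 or 3 (adjusted p = 0.0548 and 0.0617, edgeR) and without the treated replicates 1 or 3 (adjusted p = 0.0763 and 0.129, edgeR). In the other 3 comparisons the log2 FC of PRDX1 was -0.04, -0.02 and -0.08.

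Whether the response differed between the lines was tested by the interaction of line and treatment. At 6 h it called 0 of the 8 members, against 3.07% of all genes, and 1 of the 8 had an unadjusted p under 0.05. This was SRXN1, whose log2 FC differed by -0.38 (SE 0.12; adjusted p = 0.0843, edgeR). The DESeq2 Wald test called 0 members as well. At 12 h the edgeR interaction test called NQO1 alone, against 23.7% of all genes. The NQO1 response was larger in A2780cis by 0.89 on the log2 scale (SE 0.15; adjusted p = 0.000134, edgeR). PRDX1 missed the threshold (0.46, SE 0.18; adjusted p = 0.0627, edgeR). It was called by the DESeq2 Wald test (0.46, adjusted p = 0.0456) and without the filter on low counts (0.44, adjusted p = 0.043, edgeR). The falls of TXNRD1 differed by 0.28 (SE 0.13; adjusted p = 0.122, edgeR), the rises of HMOX1 by -0.25 (SE 0.18; adjusted p = 0.331, edgeR) and the values of NFE2L2 by -0.30 (SE 0.13; adjusted p = 0.107, edgeR). Without the treated 12 h A2780cis replicate 2, which had the lowest NQO1, TXNRD1, NFE2L2 and PRDX1 level of its group, 4 members were called. PRDX1 was then among them (0.62, adjusted p = 0.00532, edgeR), as was TXNRD1 (0.37, adjusted p = 0.0386, edgeR). Besides NQO1, the remaining one was ME1, which is at the floor in A2780cis. Its value there rests on 3 counts in the treated 12 h replicate 1, with 0 in the other 12 h libraries of that line. The count was 2 without the treated A2780cis replicate 1, the untreated A2780cis replicate 1 or the treated A2780 replicate 1. With library size alone NFE2L2 (-0.41, adjusted p = 0.00804, edgeR) and SRXN1 (-0.32, adjusted p = 0.0277, edgeR) were called besides NQO1. The share of positive differences among all genes called then went from 41.0% to 27.0%. NFE2L2 was also called in 1 of the 12 fits that left out a library, its difference running from -0.40 to -0.16 over these.

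A second test asked whether a response at 12 h differed from that at 6 h. In A2780, TXNRD1 (difference -0.55, SE 0.13; adjusted p = 0.00389, edgeR) and KEAP1 (difference -0.61, SE 0.20; adjusted p = 0.025, edgeR) were called, against 23.7% of all genes. In A2780cis, NQO1 (difference 0.63, SE 0.15; adjusted p = 0.0035, edgeR) and TXNRD1 (difference -0.47, SE 0.13; adjusted p = 0.012, edgeR) were called, against 24% of all genes. The A2780 count was 1 without the treated 6 h replicates 1 or 2, the untreated 12 h replicate 3 or the treated 12 h replicate 1, each time through the loss of KEAP1. KEAP1 was also lost without the untreated 6 h replicate 1 (-0.44, adjusted p = 0.094, edgeR), where HMOX1 was gained (0.61, adjusted p = 0.0134, edgeR), and with library size alone (-0.46, adjusted p = 0.123, edgeR). With all libraries HMOX1 missed the threshold in A2780 (0.46, SE 0.18; adjusted p = 0.0661, edgeR). It was called there by the DESeq2 Wald test (0.50, adjusted p = 0.0371), with DESeq2's size factors (0.50, adjusted p = 0.0446, edgeR) and with library size alone (0.62, adjusted p = 0.025, edgeR). With library size alone the share of positive differences among all genes called in A2780 went from 45.1% to 69.7%.

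Members also differed between the times in untreated cells, and the 6 h and 12 h responses refer to these moving controls. In untreated A2780cis, 6 of the 8 members were called between 6 h and 12 h, 1 higher and 5 lower, against 39.9% of all genes (18% higher and 21.9% lower). KEAP1 rose (log2 FC 0.55, SE 0.14; adjusted p = 0.0035, edgeR), and the 5 lower members were NFE2L2, NQO1, PRDX1, SRXN1 and TXNRD1, with log2 FC from -0.47 to -0.29. With library size alone 3 were called, and the share of higher genes among all called went from 45.2% to 74.6%. With each library left out in turn, 4 to 6 were called, PRDX1 being lost 3 times and TXNRD1 2 times. TXNRD1 was also lost without the filter on low counts (adjusted p = 0.141, edgeR) and with the compared samples alone (adjusted p = 0.119, edgeR). The latter setting lost SRXN1 too (adjusted p = 0.0507, edgeR). In untreated A2780, 3 members were called, KEAP1 higher (log2 FC 0.50, SE 0.14; adjusted p = 0.0122, edgeR) and NQO1 and TXNRD1 lower (log2 FC -0.33 and -0.30; adjusted p = 0.0234 and 0.0216, edgeR), against 26.9% of all genes (16.6% higher and 10.3% lower). That count was 0 without the untreated 6 h replicate 1 or the untreated 12 h replicate 3, and 1 without the 6 h replicate 2 or the 12 h replicate 2. The share of higher genes among all called there was 61.7%, and 71.9% with library size alone.

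Over all 8 groups, the order of the levels was led by line for 3 members and by treatment or time for others. NQO1 ran from 87.8 CPM in untreated A2780cis at 12 h to 247 CPM in untreated A2780 at 6 h, and all 4 A2780 groups were above all 4 A2780cis groups. For SRXN1 the order of the lines was the reverse, from 76.4 to 202 CPM, and its treated and untreated A2780cis groups overlapped at each time. For TXNRD1 the treated 12 h groups were the lowest, at 160 CPM in A2780 and 193 CPM in A2780cis, and neither overlapped its neighbour. The middle of the TXNRD1 order, from 326 to 287 CPM, held 4 groups that overlapped their neighbours. HMOX1 was highest in treated A2780 at 12 h and lowest in untreated A2780cis at 6 h, at 32.0 and 13.6 CPM, and the lower 6 groups each overlapped the next. KEAP1 had the flattest profile, 48.5 to 77.6 CPM, or 1.6 times from lowest to highest.

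The members were set beside 72 other genes of the antioxidant pathway, listed by role, of which 63 were tested. Between the untreated lines 36 of these were called at 6 h (24 higher and 12 lower in A2780cis) and 39 at 12 h (24 higher and 15 lower). Their median log2 FC was 0.15 and 0.07, against 0.01 and -0.01 for all genes tested. The share called was 57.1% and 61.9%, somewhat above the shares of all genes given above.

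Quinone, carbonyl and xenobiotic handling, the list closest in role to NQO1, had 9 of 14 tested genes higher and 2 lower in A2780cis at both times. Of all genes, 25.0% were higher and 22.9% lower at 6 h, and 25.4% and 27.5% at 12 h. OSGIN1, a growth inhibitor induced by oxidants, was at 0.407 ± 0.226 CPM in untreated A2780 and 9.97 ± 2.17 CPM in A2780cis at 12 h (log2 FC 4.53, SE 0.34; adjusted p = 8.68e-12, edgeR). The aldo-keto reductases AKR1C2 and AKR1C3 were higher by 3.66 and 1.89 on the log2 scale at 12 h. Reads may have been divided between related genes of this family, which includes AKR1C1, also on the list. OSGIN1 and AKR1C2 lay near the floor in untreated A2780, AKR1C2 at 0.633 ± 0.198 CPM at 12 h. They and AKR1C3, at 1.68 ± 0.151 CPM in untreated A2780 at 12 h, met the level required for naming through A2780cis. That these genes were named thus depended on the line where they were high. Glutathione synthesis was divided: GCLM, the modifier subunit of the enzyme that makes its precursor, was 19.4 ± 1.01 CPM in A2780cis against 40.9 ± 1.49 CPM in A2780 at 12 h (log2 FC -1.08, SE 0.12; adjusted p = 2.94e-08, edgeR). SLC7A11, the cystine importer, was likewise lower (log2 FC -1.02, SE 0.14; adjusted p = 1.06e-06, edgeR), yet 2 of the 6 genes of that list were higher.

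Among the regulators, 3 of 13 were higher and 3 lower in A2780cis at 6 h, and 4 were higher and 6 lower at 12 h. The small MAF genes MAFG and MAFF, partners of NRF2 on DNA, were lower at 12 h by -0.77 and -1.04 on the log2 scale (adjusted p = 1.09e-05 and 6.38e-06, edgeR), and MAFG by -1.17 at 6 h. The third small MAF gene, MAFK, was higher instead, by 1.39 at 6 h and 1.33 at 12 h (adjusted p = 0.0015 and 9.23e-05, edgeR). In the thioredoxin and peroxiredoxin system 5 of 10 genes were higher and 1 lower at both times. TXNIP, an inhibitor of thioredoxin, was 12.9 ± 1.8 CPM in A2780cis and 3.08 ± 0.489 CPM in A2780 at 12 h (log2 FC 2.08, SE 0.18; adjusted p = 3.26e-10, edgeR). Of 7 genes for iron and heme handling, 3 were higher and 2 lower at 6 h, and the ferritin light chain gene FTL was 366 ± 49.0 against 583 ± 89.5 CPM. For NADPH supply, the role of ME1, 1 of 7 genes was called at each time, higher in A2780cis. Of 6 superoxide and peroxide enzymes, 2 were lower and 0 higher at 6 h, and 2 lower and 1 higher at 12 h. The shares of all genes beside these lists were 25.0% higher and 22.9% lower at 6 h, and 25.4% and 27.5% at 12 h.

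After 12 h of 5-FdU-ECyd, 39 of the 63 pathway genes were called in A2780 (18 higher and 21 lower) and 41 in A2780cis (26 higher and 15 lower), or 61.9% and 65.1%, against 54.8% and 59.9% of all genes. Their median log2 FC was -0.10 and 0.14, against 0.02 and 0.04 for all genes. The genes that supply NADPH numbered 7, of which 5 were lower and 1 higher in A2780 and 3 lower and 1 higher in A2780cis, against 26.1% and 28.9% of all genes called lower. IDH1, the cytosolic isocitrate dehydrogenase, fell in both lines, in A2780 from 125 ± 8.15 to 67.6 ± 6.84 CPM (log2 FC -0.89, SE 0.11; adjusted p = 1.15e-07, edgeR) and in A2780cis by 0.82 on the log2 scale (adjusted p = 3.66e-07, edgeR). TKT, the transketolase of the pentose phosphate pathway, was 273 ± 21.6 CPM untreated and 160 ± 14.4 CPM treated in A2780 (log2 FC -0.77, SE 0.15; adjusted p = 0.000101, edgeR). Its A2780cis level was 327 ± 47.7 CPM untreated and 165 ± 4.57 CPM treated (log2 FC -0.98, SE 0.15; adjusted p = 3.43e-06, edgeR).

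Among superoxide and peroxide enzymes, GPX1, a glutathione peroxidase, rose at 12 h in A2780, with 36.6 ± 0.321 CPM untreated and 92.3 ± 14.7 CPM treated (log2 FC 1.34, SE 0.16; adjusted p = 1.82e-07, edgeR). Its level in A2780cis was 36.4 ± 5.34 CPM untreated and 101 ± 9.1 CPM treated (log2 FC 1.47, SE 0.16; adjusted p = 3.02e-08, edgeR). TXNIP rose in both lines (log2 FC 1.83 and 2.08; adjusted p = 8.34e-09 and 1.9e-11, edgeR). In its list 1 of 10 genes was higher and 2 lower in A2780, and 6 were higher and 0 lower in A2780cis. Of all genes, 28.6% were higher and 26.1% lower in A2780, and 31.0% and 28.9% in A2780cis. The interaction at 12 h called 3 of these 10 genes, or 30.0%, against 23.7% of all genes. The regulator MAFF rose in A2780, with 8.59 ± 1.25 CPM untreated and 34.8 ± 2.3 CPM treated (log2 FC 2.01, SE 0.15; adjusted p = 1.67e-11, edgeR). The A2780cis level was 4.23 ± 1.38 CPM untreated and 26.8 ± 2.33 CPM treated (log2 FC 2.67, SE 0.16; adjusted p = 2.97e-13, edgeR). CUL3, the ligase scaffold that works with KEAP1, fell in A2780cis from 126 ± 4.66 to 41.9 ± 4.41 CPM (log2 FC -1.58, SE 0.10; adjusted p = 7.57e-13, edgeR), and GSK3B, a kinase that also marks NRF2 for degradation, fell there from 53.3 ± 3.46 to 22.3 ± 4.45 CPM (log2 FC -1.26, SE 0.12; adjusted p = 3.22e-09, edgeR). Both CUL3 and GSK3B were lower in treated A2780 too. CUL3 went from 129 ± 4.24 to 78.1 ± 8.23 CPM there and GSK3B from 70.6 ± 3.0 to 50.5 ± 1.34 CPM, without overlap. In each line 5 of 13 regulators were higher and 4 lower, or 69.2% called, against 54.8% of all genes in A2780 and 59.9% in A2780cis.

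The export pump gene ABCC4 fell in both lines (log2 FC -1.34 and -1.49; adjusted p = 5e-11 and 6.83e-12, edgeR). Its list had 3 genes higher and 6 lower of 14 in A2780 and 5 higher and 4 lower in A2780cis. SLC40A1, which encodes the iron exporter ferroportin, rose in A2780 from 6.67 ± 0.428 to 13.3 ± 1.39 CPM (log2 FC 0.99, SE 0.11; adjusted p = 5.22e-08, edgeR). In A2780cis it measured 13.6 ± 0.761 CPM untreated and 11.6 ± 0.708 CPM treated (log2 FC -0.23, SE 0.11; adjusted p = 0.0631, edgeR). Of the 7 genes for iron and heme handling, the list that stands nearest to HMOX1, 4 were higher and 1 lower in each line. The glutathione list had 2 higher and 2 lower of 6 in A2780 and 2 higher and 3 lower in A2780cis. These counts stand beside 28.6% higher and 26.1% lower of all genes in A2780, and 31.0% and 28.9% in A2780cis.

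**Figure D4:**
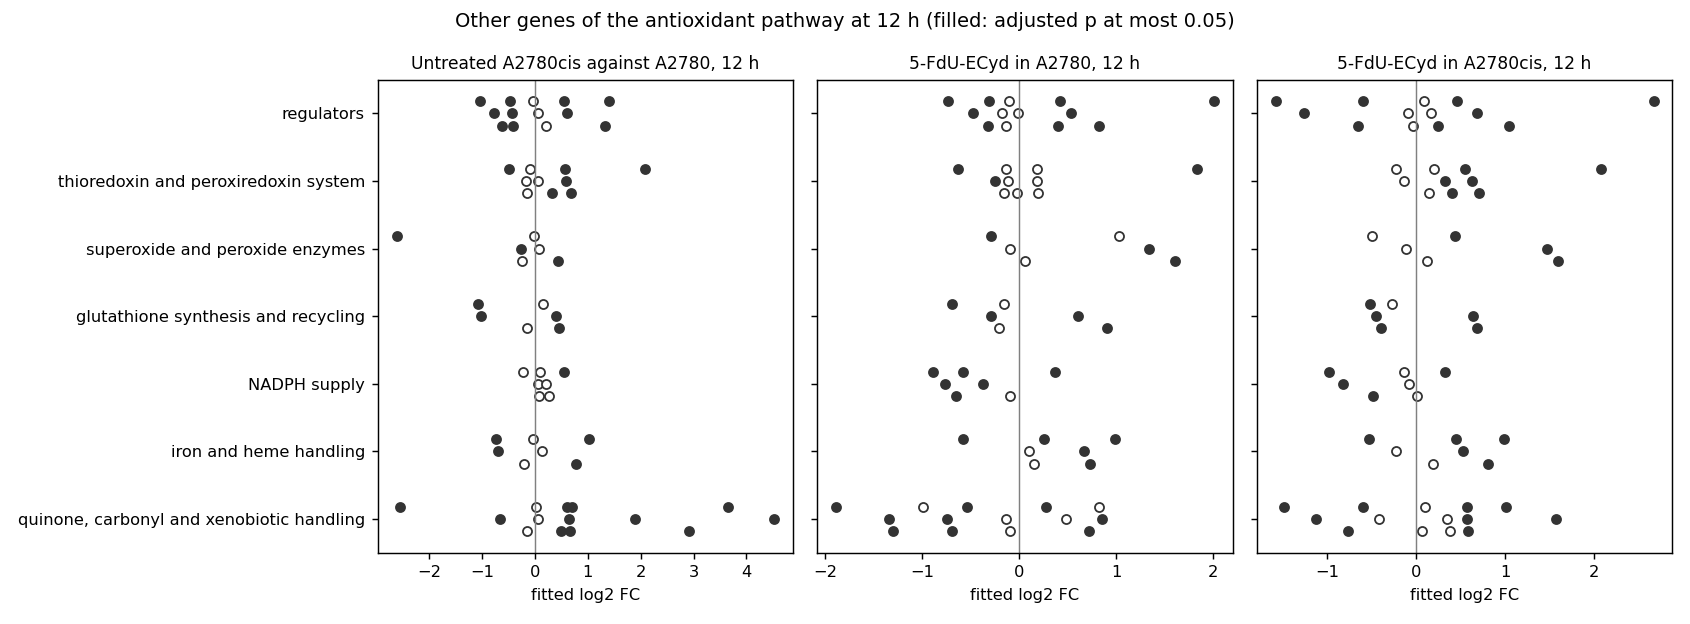
Fitted log2 FC (x axis) of the 63 tested pathway genes, in rows by list, at 12 h for untreated A2780cis against A2780 and for 5-FdU-ECyd in each line, with filled circles for an adjusted p of at most 0.05 and the vertical offset within a row used only to separate points. Most lists have called genes on both sides of 0, and NADPH supply lies mainly below 0 in treated A2780, with 5 of 7 genes called lower.

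At 6 h of treatment 27 pathway genes were called in A2780 (18 higher and 9 lower) and 21 in A2780cis (12 higher and 9 lower). These were 42.9% and 33.3% of the 63, against 29.4% and 30.7% of all genes, so that the A2780cis share was near that of all genes. The A2780 count fell to 14 without the untreated replicate 1 and to 16 without the treated replicate 1. GPX1 rose in A2780 at this time (log2 FC 0.96, SE 0.17; adjusted p = 0.00018, edgeR) and SLC7A11 fell (log2 FC -0.92, SE 0.14; adjusted p = 2.96e-05, edgeR). In A2780cis MAFF and OSGIN1 rose (log2 FC 1.23 and 1.14; adjusted p = 6.11e-06 and 0.00185, edgeR), and CUL3 and GSK3B fell (log2 FC -0.81 and -0.78; adjusted p = 5.14e-07 and 2.62e-05, edgeR). The group means of these genes moved the same way in the other line. GPX1 went from 17.5 to 31.5 CPM and SLC7A11 from 29.1 to 22.5 CPM in A2780cis. In A2780, MAFF went from 6.04 to 11.1, OSGIN1 from 0.15 to 0.572, CUL3 from 134 to 107 and GSK3B from 70.0 to 50.9 CPM. Of these genes the 6 h interaction called CUL3 alone, a call that depended on single libraries.

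The genes whose profile over the 8 groups lay nearest to each member were found by the root mean square difference of centred log2 group means, as a description over 8 groups. For TXNRD1 they were ADK and MRPL3, at 0.0548 and 0.0601 on the log2 scale, against a range of 1.31 for TXNRD1 itself. For NFE2L2 the nearest were AVEN and ENSG00000279909.1 (0.05 and 0.0526), and for KEAP1 SHMT2 and ZC3H7B (0.0626 and 0.0642). NQO1 had the nearest neighbours RAP2C-AS1 and LAMTOR5 at 0.119 and 0.125, with a range of 1.49. For HMOX1 they were PCCA-DT and LY6G5B (0.0583 and 0.1), for PRDX1 LSM5 and ATP5PO (0.0399 and 0.0458), and for ME1 CNNM1 and ISL1 (0.103 and 0.123). SRXN1 lay nearest to the overlapping ENSG00000270299, with which it shares reads, and then to RASL11B (0.0731). None of these neighbours was a member or a gene of the pathway lists.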

How the data were processed

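Total RNA of 24 samples in 8 groups of 3 was sequenced with a stranded total RNA kit, described as single reads in the labels and as paired-end in the study's methods. The authors deposited expected counts per gene, not normalized, made with STAR 2.5.2b on GRCh38.p7 and featureCounts with fractional counts for reads with several alignments and with overlaps of genes allowed; 9.5% to 12.8% of a library's entries were not whole. Counts were rounded and fitted in R 4.3.3 with edgeR 4.0.16 (filterByExpr with a minimum of 10 and a total of 15, TMM, quasi-likelihood F test, 1 coefficient per group, 16 residual degrees of freedom, two-sided, Benjamini-Hochberg over 20240 genes). Standard errors follow from the log2 FC and the F statistic, and intervals from the t distribution. Identifiers were matched to GENCODE 44 (56948 of 63299), and the reads shared by overlapping genes were left as counted.

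The members, pathway lists and tests were chosen with earlier results of these data known. Of 94 listed symbols 93 were matched, the other being SOD2. Named beside the members were pathway genes called without overlap of their groups, at an average log2 CPM of 2 or more (a condition not set for interactions), the 4 largest each way for untreated lines and 12 h treatment and 2 for 6 h treatment and interactions, and the 2 nearest profiles per member (pseudocount 0.5 CPM). MAFK and the A2780cis values of IDH1, TKT and SLC40A1 were added after their values were seen. So were the 6 h and 12 h treatment values of named genes in the line where this rule did not name them. Other settings tried were DESeq2's size factors, library size alone, no filter, counts not rounded, a replicate block, the compared samples alone, the Wald test of DESeq2 1.42.0 and each library left out in turn. The fit was tested on simulated data. Figures used Python 3.11.15, pandas 2.3.3 and matplotlib 3.10.9.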

Additional observations from a re-analysis of the deposited data

Results flagged for a closer look

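These results are listed because 2 lines or 2 times differed in the same contrast by the test of the difference itself (edgeR quasi-likelihood test, Benjamini-Hochberg adjustment). Groups of 3 were not tested for single outlying samples.

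Among the members, the 12 h response of NQO1 was higher in A2780cis than in A2780 by 0.89 on the log2 scale (adjusted p = 0.000134, edgeR). From 6 h to 12 h the response of TXNRD1 changed by -0.55 in A2780 (adjusted p = 0.00389, edgeR) and by -0.47 in A2780cis (adjusted p = 0.012, edgeR). That of KEAP1 changed by -0.61 in A2780 (adjusted p = 0.025, edgeR), a call lost on removal of 5 of 12 libraries and with library size alone, and that of NQO1 by 0.63 in A2780cis (adjusted p = 0.0035, edgeR).

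Of the other pathway genes, the response of SLC40A1 in A2780cis minus that in A2780 was -0.75 at 6 h (adjusted p = 0.00931, edgeR) and -1.22 at 12 h (adjusted p = 4.58e-06, edgeR). It rose in A2780 (log2 FC 0.48 and 0.99), and its log2 FC in A2780cis, not called, was -0.26 and -0.23. The 6 h difference was not called without the filter on low counts (-0.73, adjusted p = 0.0653, edgeR). CUL3 fell further in A2780cis at 6 h (-0.49, adjusted p = 0.0463, edgeR) and at 12 h (-0.85, adjusted p = 7.4e-05, edgeR). At 12 h the differences were 1.95 for AKR1C3 (adjusted p = 0.000785, edgeR) and 0.87 for PRDX5 (adjusted p = 0.0042, edgeR). AKR1C3 fell in A2780 (log2 FC -1.89) to near the floor. Its untreated mean there was 1.68 CPM, and the treated libraries held only 0.14, 0.44 and 0.68 CPM. The A2780cis means of AKR1C3 stayed close, 6.23 CPM untreated and 6.54 CPM treated. PRDX5 averaged 128 CPM untreated and 115 CPM treated for A2780. The A2780cis means of PRDX5 were 90.4 CPM untreated and 148 CPM treated. The 6 h value of CUL3 lost its call on removal of 10 of the 12 libraries compared, taken 1 at a time.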

How the results depend on the processing

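Numbers of called members, pathway genes and all genes, and the members' log2 FC, were recomputed under each alternative (edgeR unless another tool is named). The causes of the changes below were not tested. Size factors as in DESeq2 gave 5 members called over time in untreated A2780 (3 in the report), 1 pathway gene for the interaction at 6 h (2) and 0.00 for the growth of PRDX1 from 6 h to 12 h in A2780. The DESeq2 Wald test gave 5 members over time in untreated A2780, 2 for the interaction at 12 h and 0.00 for that growth of PRDX1. Library size alone gave 3 members for the interaction at 12 h and 3 over time in untreated A2780cis. It turned the sign of treatment values that were not called, to 0.01 for NQO1 and 0.03 for PRDX1 in A2780 at 6 h and to 0.06 for SRXN1 and 0.07 for PRDX1 in A2780cis at 6 h. At 12 h it gave 0.01 for NFE2L2, 0.06 for KEAP1, 0.06 for NQO1 and 0.14 for PRDX1 in A2780, and 0.09 for SRXN1 in A2780cis. The growth in A2780 became 0.05 for NQO1, 0.00 for SRXN1 and 0.11 for PRDX1. Without the filter on low counts, 1 member was called in A2780cis at 6 h (2 in the report), 2 for the interaction at 12 h and 0 pathway genes for the interaction at 6 h, and the growth of SRXN1 in A2780cis was -0.05. With the compared samples alone, PRDX1 in A2780cis at 6 h was 0.01, 1 pathway gene was called for the interaction at 6 h, and 11 for the growth in A2780cis (21). Counts that were not rounded moved no number of calls by over 1.5 times.

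Replicate numbers were shared between groups, but same-numbered libraries did not deviate together throughout (correlations from -0.65 to 0.61 over 13091 genes), so they were not taken as pairs. For replicates 1, 2 and 3 the correlations were 0.61, 0.26 and 0.08 for treatment in A2780cis at 12 h. They were 0.36, 0.03 and 0.44 for the untreated lines at 12 h, and -0.65, 0.15 and -0.48 for treatment in A2780 at 6 h. The replicate block moved no number of calls by over 1.5 times. It brought NFE2L2 to call between untreated lines at 6 h (log2 FC 0.22, adjusted p = 0.0448) and in A2780 at 12 h (log2 FC -0.21, adjusted p = 0.0493), and changed no other call of a member.

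With each library left out in turn, called members ranged from 2 to 5 in A2780 at 6 h, 1 to 2 in A2780cis at 6 h, 1 to 4 for the interaction at 12 h, 1 to 2 for the growth in A2780 and 0 to 4 over time in untreated A2780. Pathway genes ranged from 14 to 28 in A2780 at 6 h, 1 to 2 for the interaction at 6 h, 11 to 19 and 11 to 20 for the growth in A2780 and A2780cis, and 4 to 24 and 22 to 36 over time in untreated A2780 and A2780cis. All genes called ranged from 3805 to 5987 in A2780 at 6 h (5950 with all libraries), 357 to 642 for the interaction at 6 h (622), 1846 to 5697 over time in untreated A2780 (5435) and 4985 to 8421 in untreated A2780cis (8083). The lowest values of the first 3 were those without the untreated 6 h A2780 replicate 1, and the last that without the untreated 12 h A2780cis replicate 3. Without the treated 6 h A2780 replicate 1, 3963 genes were called in A2780 at 6 h, and without the untreated 12 h A2780 replicate 3, 2324 over time in untreated A2780. The 6 h interaction also dropped to 408, 391 and 372 genes without the treated A2780, the untreated A2780cis and the treated A2780cis replicate 2. Signs turned only for values that were not called. Between untreated lines these were TXNRD1, at -0.05 to 0.04 (6 h) and -0.09 to 0.04 (12 h), and NFE2L2, at -0.07 to 0.02 (12 h). In A2780 at 6 h they were NQO1 (-0.11 to 0.02) and PRDX1 (-0.13 to 0.07), in A2780cis at 6 h SRXN1 (-0.10 to 0.01) and PRDX1 (-0.11 to 0.08), and in A2780cis at 12 h SRXN1 (-0.09 to 0.06). The interaction turned for HMOX1 (-0.26 to 0.02) and PRDX1 (-0.09 to 0.12) at 6 h and for KEAP1 (-0.16 to 0.05) at 12 h. The growth turned for NFE2L2 (-0.02 to 0.17) and PRDX1 (-0.15 to 0.04) in A2780 and SRXN1 (-0.10 to 0.09) in A2780cis, and the time course of untreated A2780cis for HMOX1 (-0.01 to 0.13). Depth limits ME1 most, with at most 3 counts in any A2780cis library.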
